A study of Homo sapiens with 15 samples.

Results

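The transcriptome of MCF10A cells in 0.04 mM glutamine, the lowest of 4 limiting concentrations tested, was set against that of the same cells in full medium with 2.5 mM glutamine. MCF10A is a human breast epithelial line that is not transformed, labelled wild type in both groups. The cells in 0.04 mM received glutamine-free DMEM/F12 to which glutamine was added back, and DMEM/F12 at its usual glutamine level served as full medium. For the line, the labels list a maintenance medium of DMEM/F12 with mammary epithelial growth supplements, cholera toxin, penicillin and streptomycin. How long glutamine was limited is not given in the sources used here. Each group had 3 biological replicates, so 6 of the 15 libraries enter this comparison. The other 9, at 0.12 mM, 0.20 mM and 0.28 mM, shared the estimate of the spread and were used to see what set 0.04 mM apart. All Ensembl genes were eligible, and 13828 of them passed the filter on low counts and were tested.

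Glutamine is taken up by neutral amino acid carriers and feeds the tricarboxylic acid cycle in mitochondria by way of glutamate. It also hands its amide nitrogen to enzymes that make purines, pyrimidines, amino sugars and asparagine. Dividing epithelial cells draw on these products to copy DNA and to make RNA and glycoproteins.

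Libraries held 3704170 to 11228596 gene counts at 0.04 mM and 7451107 to 11442044 in full medium, and ERCC spike-ins took 1.03 to 1.38% of all counts. Replicate 3 at 0.04 mM was the shallowest library and had 2.97% of its gene counts in mitochondrial ribosomal RNA, against at most 0.0228% in the other 5. All 10 basal epithelial markers were tested, with a summed level of 24810 to 37010 CPM (counts scaled to a common library size with TMM factors) at 0.04 mM and 23170 to 37760 CPM in full medium. The 8 pan-epithelial markers summed to 1540 to 1740 CPM at 0.04 mM and 1548 to 1913 CPM in full medium, with EPCAM among them at only 264 counts over the 6 libraries. Of markers of other cell types, 4 of 10 for fibroblasts, 2 of 8 for endothelium, 2 of 8 for immune cells and 0 of 6 for adipocytes were tested. LUM, THY1, CDH5, CLDN5, CD3E, ADIPOQ and LEP had 0 counts. Fibroblast markers summed to 159 to 184 CPM at 0.04 mM and 110 to 168 CPM in full medium, mostly from POSTN. Of the 4 tested, 2 rose, DCN by 0.62 (SE 0.125, adjusted p = 0.000699) and COL1A1 by 0.46 (SE 0.134, adjusted p = 0.0157), and 0 fell (median 0.35, with 0.24, 0.38 and 0.44 in pairs 1, 2 and 3).

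At 0.04 mM, 1903 genes changed (13.8% of those tested, edgeR quasi-likelihood test with the replicate number as a block, Benjamini-Hochberg adjusted p under 0.05). Of these, 1021 rose (7.38%) and 882 fell (6.38%). In the highest quintile of CPM 13.05% rose and 14.28% fell, and counts for lists of abundant genes are to be read beside these shares. Most changes were small. On the log2 scale the median change was 0.38 among the genes that rose and -0.34 among those that fell. Only 59 rose and 28 fell at least 2-fold, while 358 rose and 379 fell by under 0.32 on the log2 scale. Over all genes tested the median was 0.006, the 5th percentile -0.505 and the 95th 0.58. Because RNA was measured in bulk, fewer cells of a kind and less RNA per cell cannot be told apart, and CPM give shares of the RNA, not amounts per cell.

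The labels number the replicates 1 to 3 in each group but do not say what a number stands for. Same-numbered cultures deviated together from their group means, and genes were read within pairs of the same number. Of the genes that rose, 981 of 1021 were higher in 3 of 3 pairs, and of those that fell, 863 of 882 were lower in 3 of 3 pairs. These same libraries had made the calls, so this agreement is no separate support. All 3 libraries at 0.04 mM lay above the 3 of full medium for 961 genes (6.95%) and below them for 1135 (8.21%). With only 3 libraries against 3, some genes separate this way by the order of libraries alone. A lack of overlap is therefore a description, not a test. Across the 7493 genes with at least 20 CPM, the log2 ratios of one pair correlated with those of another at Pearson r 0.498 (pairs 1 and 2), 0.582 (pairs 2 and 3) and 0.324 (pairs 3 and 1). These values describe genes within shared libraries, which are not independent replicates. Without the replicate number in the model only 10 genes rose and 0 fell, although 1605 had an unadjusted p under 0.05. They are GFPT2, ANTXR2, CCNG2, SLITRK6, PIK3CD, IL31RA, ARNT2, TRPV3, ITGA2 and ENSG00000233589, whose exons overlap another gene, so that it is uncertain. All other calls against full medium given below, in every list, rest on the replicate number in the model. With 1 library left out, the counts ran from 594 rising and 422 falling genes (without 0.04 mM replicate 2) to 1083 rising and 1019 falling (without full medium replicate 1). They were 722 and 673 without 0.04 mM replicate 1, 761 and 636 without 0.04 mM replicate 3, 693 and 610 without full medium replicate 2, and 852 and 616 without full medium replicate 3.

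**Figure D1:**
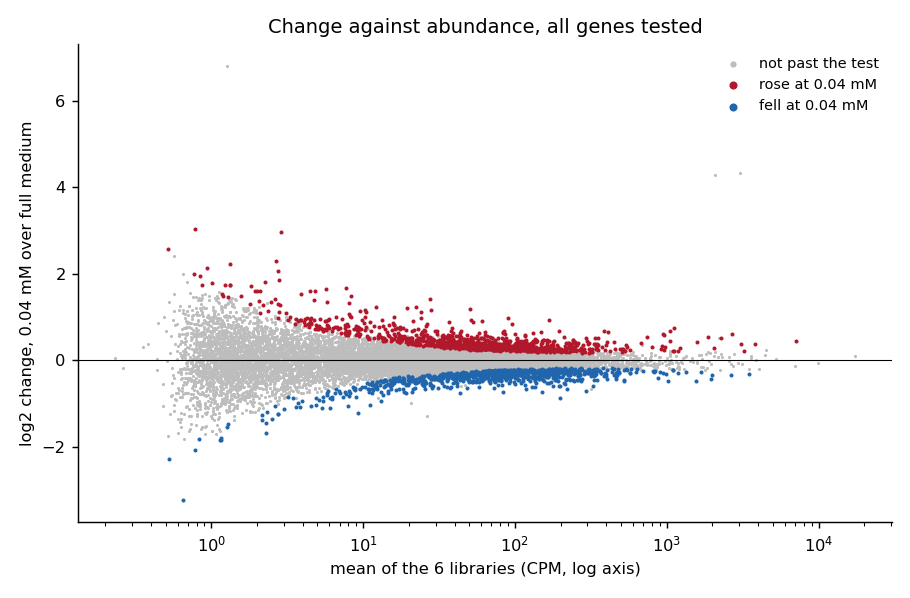
Each point is 1 of the 13828 genes tested, with its mean over the 6 libraries in CPM (log axis) and its log2 change, 0.04 mM over full medium. Of the genes, 1021 rose (red) and 882 fell (blue), mostly by little, and few of those at the left edge passed the test.

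Glutamine handling split into genes that rose and genes that fell. Of 16 carrier genes tested, 3 rose (18.75%) and 1 fell (6.25%), against 7.38% and 6.38% of all genes, with a median of 0.16. Without full medium replicate 1 there were 5 rising, and the falling call was lost without any 1 of 0.04 mM replicates 2 and 3 or full medium replicates 2 and 3. SLC38A2, the neutral amino acid carrier SNAT2 (chromosome 12, 46358188 to 46372773, GRCh38.p14 as for all positions given), had 401, 625 and 477 CPM at 0.04 mM, against 273, 376 and 304 CPM in full medium. Each library at 0.04 mM exceeded each one of full medium, and the change was 0.65 (SE 0.0692, adjusted p = 5.69e-08). SLC1A4, a carrier of alanine, serine and cysteine, had 14.4, 18.3 and 20.5 CPM at 0.04 mM, against 13.1, 9.27 and 8.4 CPM in full medium, also with no overlap. Its change was 0.73 (SE 0.18, adjusted p = 0.00452), but 0.57 (adjusted p = 0.0837) without 0.04 mM replicate 2 and 0.49 (adjusted p = 0.0708) without full medium replicate 3. SLC7A11, the cystine/glutamate exchanger, had 56.2, 106 and 156 CPM at 0.04 mM, against 51.8, 81.2 and 75.1 CPM in full medium. Its groups overlapped, since replicate 1 at 0.04 mM stood below replicates 2 and 3 of full medium. The change was 0.51 (SE 0.134, adjusted p = 0.0179), and 0.55 (adjusted p = 0.0549) without full medium replicate 2.

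Among 23 genes that make or use glutamine and glutamate, 5 rose and 5 fell (median -0.06, and -0.15 to -0.01 with single libraries left out). GLUL, glutamine synthetase, which makes glutamine from glutamate and ammonia (chromosome 1, 182378098 to 182391790), fell, with 292, 245 and 245 CPM at 0.04 mM, against 422, 330 and 418 CPM in full medium. The groups did not overlap and the change was -0.58 (SE 0.0699, adjusted p = 3.74e-07). GFPT2, which takes the amide nitrogen of glutamine into the hexosamine pathway (chromosome 5, 180300698 to 180353336), had 28.7, 44.9 and 47.3 CPM at 0.04 mM, against 15, 14.2 and 14.7 CPM in full medium. Its change of 1.41 (SE 0.137, adjusted p = 1.28e-08) was the largest among genes that passed the test with a mean of at least 20 CPM. Full medium replicates differed by under 1 CPM in this gene, whereas replicate 1 at 0.04 mM stood well below replicates 2 and 3. GSS, glutathione synthetase, fell by 0.47 (SE 0.0888, adjusted p = 0.000312). The counts in this group were 3 rising without replicate 1 or replicate 3 at 0.04 mM, and 3 falling without 0.04 mM replicate 2 or full medium replicate 3.

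**Figure D2:**
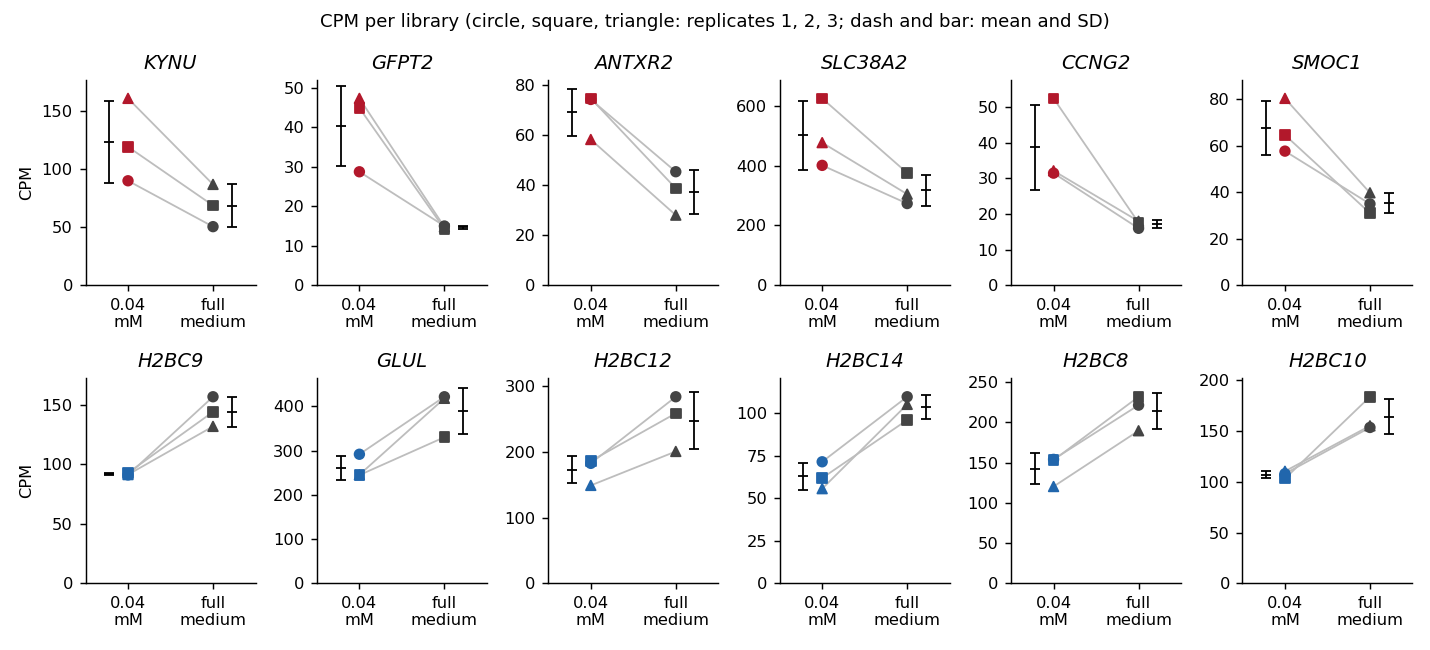
CPM of the 6 rising (upper row) and 6 falling genes (lower row) with the smallest adjusted p, 0.04 mM left and full medium right. Symbols are libraries, grey lines join replicates with the same number, and dashes with bars are means and SDs (n = 3); in all 12 genes the libraries of the groups do not overlap.

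Other genes with small adjusted p or large changes had varied roles. KYNU, kynureninase of tryptophan breakdown (chromosome 2, 142877664 to 143055833), had 89.8, 119 and 161 CPM at 0.04 mM, against 50.3, 68.5 and 86.7 CPM in full medium. Within each pair it was higher at 0.04 mM, and its change was 0.84 (SE 0.0762, adjusted p = 1.9e-09). ANTXR2, a receptor for anthrax toxin that binds matrix proteins (chromosome 4, 79901146 to 80073472), rose by 0.89 (SE 0.0913, adjusted p = 2.43e-08). CCNG2, a cyclin of cells leaving the cycle (chromosome 4, 77157207 to 77170060), had 31.5, 52.5 and 32.2 CPM at 0.04 mM, against 16, 17.6 and 18 CPM in full medium. Its change was 1.16 (SE 0.125, adjusted p = 5.87e-08), with no overlap. SMOC1, a secreted matrix protein, rose by 0.92 (SE 0.101) and NT5E, the surface nucleotidase CD73, by 0.68 (SE 0.0752). The lipase-related gene PNLIPRP3 rose by 1.12 (SE 0.123), the acetylcholine receptor subunit gene CHRNA9 by 0.91 (SE 0.104) and the cyclin gene CCNI by 0.51 (SE 0.0627). Adjusted p-values of these genes lay between 6.28e-08 (SMOC1, PNLIPRP3) and 6.25e-07 (CCNI). SLITRK6, a leucine-rich repeat membrane protein, rose by 1.24 (SE 0.15, adjusted p = 6.25e-07), and IGSF9B, an immunoglobulin superfamily adhesion protein, by 0.97 (SE 0.109, adjusted p = 2.72e-06). The fall of SRRM1, a splicing coactivator, was -0.55 (SE 0.0765, adjusted p = 5.04e-06). PSPC1, a paraspeckle protein, changed by -0.76 (SE 0.11, adjusted p = 8.23e-06), and SRM, which makes spermidine, by -0.46 (SE 0.0669, adjusted p = 8.7e-06). PEG10, an imprinted gene derived from a retrotransposon, fell by 0.66 (SE 0.115, adjusted p = 0.00135), with 184, 151 and 165 CPM at 0.04 mM, against 220, 238 and 356 CPM in full medium.

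Histone genes fell together and by the most of any group listed. Lists and members were chosen with earlier results of these data known, so this order of lists is a description, not a test. Replication-dependent histones are made in S phase to package newly copied DNA, and linker histones H1 bind between nucleosomes. Of 63 such genes, 52 were tested. Of those 52, 45 fell, 0 rose and 52 had an estimate below 0. All 16 H2B genes and all 5 H1 genes fell, with medians of -0.54 and -0.47. Of the others, 8 of 11 H2A (median -0.45), 7 of 10 H3 (-0.44) and 9 of 10 H4 genes (-0.47) fell. All 3 libraries at 0.04 mM lay below those of full medium for 39 of the 52, against 8.21% of all genes. The 11 left out had too few counts to test. Many copies are near identical, so a read can be given to the wrong member, and single members are uncertain. With 1 library left out, 14 to 16 H2B, 4 or 5 H1, 7 or 8 H2A, 5 to 9 H3 and 6 to 10 H4 genes fell. Without the replicate number in the model 0 genes of each of these lists passed the test, with medians of -0.44 to -0.53.

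In the H2B group, H2BC9 (chromosome 6, 26251614 to 26252075) had 91, 92.8 and 91.3 CPM at 0.04 mM, against 157, 144 and 132 CPM in full medium. The libraries at 0.04 mM lay within 2 CPM of each other and all below full medium, and the change was -0.66 (SE 0.0741, adjusted p = 8.12e-08). H2BC12 had 183, 186 and 149 CPM at 0.04 mM, against 284, 259 and 201 CPM in full medium, with -0.52 (SE 0.066, adjusted p = 9.51e-07). H2BC14 had 71.5, 61.9 and 55.7 CPM at 0.04 mM, against 110, 96 and 105 CPM in full medium, with -0.73 (SE 0.094, adjusted p = 1.57e-06). These genes stood in the same order of groups, with no library at 0.04 mM reaching the lowest of full medium. H1-4, a linker histone, had 300, 285 and 249 CPM at 0.04 mM, against 410, 394 and 341 CPM in full medium, and its change was -0.46 (SE 0.0658, adjusted p = 8.7e-06). H4C1 had 15.8, 16.9 and 15.4 CPM at 0.04 mM, against 30, 26.4 and 22.1 CPM in full medium, with -0.73 (SE 0.145, adjusted p = 0.000502). Replacement histones are made outside S phase as well. Of 11 of them 1 rose (9.09%) and 3 fell (27.27%), against 7.38% and 6.38% of all genes. Their median was -0.14, or -0.08 without full medium replicate 2, and 1 fell without 0.04 mM replicate 2. H2AX, the variant phosphorylated at DNA breaks, fell by 0.46 (SE 0.0758, adjusted p = 5.47e-05), while H3-3A, which encodes a replacement H3, rose by 0.28 (SE 0.0988). The H3-3A call was lost without any 1 of 0.04 mM replicates 1, 2 and 3 or full medium replicates 1 and 2 (0.22 to 0.31, adjusted p = 0.0844 to 0.204).

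Because the H2B genes fell as a family, their promoters are shown, for the 5 of the 6 H2B genes with the smallest adjusted p that hold the octamer. Promoters of H2B genes are known to carry this octamer element, which the factor Oct-1 binds. Each line gives the 80 bases before the annotated start, 5′ to 3′ on the strand of the gene (RefSeq, GRCh38.p14), with the octamer ATTTGCAT in capitals.
H2BC9, chr6:26251534-26251613, plus strand: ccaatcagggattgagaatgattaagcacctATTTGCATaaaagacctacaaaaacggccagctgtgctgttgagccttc
H2BC12, chr6:27146859-27146938, minus strand: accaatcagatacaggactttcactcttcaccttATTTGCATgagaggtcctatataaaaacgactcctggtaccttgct
H2BC14, chr6:27814942-27815021, plus strand: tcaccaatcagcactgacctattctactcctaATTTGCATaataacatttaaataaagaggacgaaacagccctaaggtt
H2BC8, chr6:26216689-26216768, minus strand: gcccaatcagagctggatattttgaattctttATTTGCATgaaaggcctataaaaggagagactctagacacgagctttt
H2BC10, chr6:26272851-26272930, plus strand: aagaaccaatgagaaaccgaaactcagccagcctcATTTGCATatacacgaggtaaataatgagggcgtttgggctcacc
In the 250 bases before the start, searched on both strands, ATTTGCAT stood in 13 of 16 H2B promoters (81.2%) and 10 of 14 H2A promoters (71.4%), against 1.66% of all 27305 promoters. H2A and H2B genes often lie head to head, so a pair can share 1 stretch. It stood in 1 of 11 H3, 0 of 12 H4 and 0 of 5 H1 promoters, whose genes had medians close to that of H2A. H2BC17, the other one of the 6, had no ATTTGCAT in its 80 bases. CCAAT stood in 16 of 16 H2B, 14 of 14 H2A, 11 of 11 H3, 5 of 5 H1 and 3 of 12 H4 promoters, against 33% of all. Among promoters matched to genes tested, CCAAT stood in 44.6% of the 736 whose gene fell and 30.8% of the 800 whose gene rose, against 35.6% of the 10237 tested. TATAAA stood in 68.8% of H2B promoters, against 11.1% of all. The AP-1 motif TGANTCA stood in 4.75% of promoters of genes that rose and 2.58% of those that fell, against 3.89% of those tested. The motif TGATGNAAT, bound by ATF4 with C/EBP proteins, stood in 0.625% of promoters of genes that rose and 0.272% of those that fell, against 0.43% of those tested. The E-box CACGTG stood in 7.12% of promoters of genes that rose and 10.5% of those that fell, against 8.96% of those tested. The NRF2 motif TGACNNNGC stood in 9.88% of promoters of genes that rose and 13.3% of those that fell, against 12.2% of those tested. Matches of different motifs may overlap, and a match is a string of letters, not a bound site.

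DNA replication genes fell in part. Of 27 genes of origin licensing and the CMG helicase, 14 fell and 0 rose (median -0.24, with -0.09, -0.27 and -0.45 in pairs 1, 2 and 3). MCM7, a helicase subunit, had 212, 208 and 159 CPM at 0.04 mM, against 248, 266 and 261 CPM in full medium, and its change was -0.43 (SE 0.0745, adjusted p = 0.000102). GINS1, part of the same helicase, fell by 0.48 (SE 0.0915, adjusted p = 0.000296), and CDC45 by 0.49 (SE 0.0999, adjusted p = 0.000682). The count was 7 without 0.04 mM replicate 2 or full medium replicate 3, 9 without 0.04 mM replicate 3, and 4 without replicate 3 in all groups. Among 29 polymerase and fork genes 11 fell and 1 rose (median -0.16, or -0.27 without full medium replicate 1), or 7 fell without 0.04 mM replicate 2. Their medians were -0.01, -0.24 and -0.37 in pairs 1, 2 and 3, and 4 of 30 fell without replicate 3 in all groups. The 1 rising call held only with all 6 libraries or without 0.04 mM replicate 1. LIG1, which joins Okazaki fragments, had 69.2, 58.2 and 55.1 CPM at 0.04 mM, against 88.8, 82 and 82.8 CPM in full medium, with a change of -0.47 (SE 0.0799, adjusted p = 7.8e-05). POLD2, a polymerase delta subunit, fell by 0.30 (SE 0.067, adjusted p = 0.00168). Of 28 crossover repair genes 1 fell (3.57%, below the 6.38% of all genes) and 0 rose. That gene was EME1, a nuclease subunit, with 9.41, 8.45 and 3.24 CPM at 0.04 mM, against 15.4, 16.7 and 13.3 CPM in full medium. Its change was -1.04 (SE 0.202, adjusted p = 0.000446), and 4 of these genes fell without full medium replicate 1 and 2 without 0.04 mM replicate 1. Histone chaperones, which hand histones to DNA, had 7 falling (35%) and 3 rising (15%) of 20, against 6.38% and 7.38% of all genes. ATRX, a chromatin remodeller that deposits H3.3, had 101, 128 and 135 CPM at 0.04 mM, against 66.2, 83.6 and 87.2 CPM in full medium, and rose by 0.61 (SE 0.076, adjusted p = 6.25e-07), opposite in direction to the histones. Of these chaperones 2 fell without 0.04 mM replicate 1, and 3 without 0.04 mM replicate 2 or full medium replicate 3.

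Cell division genes fell in part as well. Of 35 mitotic kinase and anaphase-promoting complex genes 10 fell and 0 rose (median -0.09, or -0.14 without full medium replicate 1). CDC20, which activates that complex (chromosome 1, 43358981 to 43363203), had 277, 222 and 172 CPM at 0.04 mM, against 374, 373 and 336 CPM in full medium. All 3 libraries at 0.04 mM lay below the lowest of full medium, and the change was -0.71 (SE 0.0961, adjusted p = 4.75e-05). UBE2C, its ubiquitin-conjugating partner, fell by 0.46 (SE 0.0808, adjusted p = 0.000111), and AURKB, a kinase of chromosome segregation, by 0.50 (SE 0.0994, adjusted p = 0.000598). The pairs differed: the median log2 ratio of this list was 0.02 in pair 1, -0.15 in pair 2 and -0.25 in pair 3. Without replicate 3 in all groups 6 of its genes fell. Spindle motor and midbody genes had 9 falling and 1 rising of 27 (median -0.105), among them TACC3, a spindle protein, at -0.51 (SE 0.0787, adjusted p = 2.22e-05) and the kinesin gene KIF20A at -0.47 (SE 0.0794, adjusted p = 7.98e-05). Of these, 5 fell without 0.04 mM replicate 2 or full medium replicate 3, while 3 rose without replicate 3 of either group and 0 without 0.04 mM replicates 1 or 2. Their median was -0.02 without full medium replicate 3, -0.17 without full medium replicate 1 and 0.003 without replicate 3 in all groups. In pairs 1, 2 and 3 the median log2 ratio was 0.03, -0.11 and -0.24. Among 11 tubulin genes 7 fell and 0 rose (median -0.29). TUBB had 1909, 1721 and 1386 CPM at 0.04 mM, against 2307, 2254 and 2078 CPM in full medium, with -0.42 (SE 0.08, adjusted p = 0.000299). Of 35 centromere and kinetochore genes 3 fell (8.57%, against 6.38% of all genes), or 7 without full medium replicate 1. Their median log2 ratio was 0.08 in pair 1, -0.09 in pair 2 and -0.21 in pair 3. CENPM, a centromere protein, fell by 0.66 (SE 0.15, adjusted p = 0.00231). Condensins and cohesins had 4 rising and 3 falling of 24, with 1 or 2 rising when any 1 library but full medium replicate 3 was left out. Falling members numbered 1 without 0.04 mM replicate 2 or full medium replicate 3, and 7 without full medium replicate 1. With the GC content and length offset 0 rose and 4 fell. Their median was -0.03, but 0.05 without 0.04 mM replicate 3, 0.03 without full medium replicate 3 and 0.11 without replicate 3 in all groups.

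Genes of RNA synthesis and processing also fell in part. Genes of the snoRNP and small subunit processome, which modify and cleave ribosomal RNA, were listed with some of large subunit assembly. Of these 36 genes 11 fell and 0 rose (median -0.16). NOP56, a core protein of box C/D particles (chromosome 20, 2652632 to 2658393), had 278, 201 and 207 CPM at 0.04 mM, against 357, 325 and 267 CPM in full medium. Its groups overlapped between pairs, but it was lower at 0.04 mM in each pair, with -0.47 (SE 0.0674, adjusted p = 7.15e-06). BOP1, of large subunit assembly, fell by 0.40 (SE 0.0759, adjusted p = 0.000296), and NOL6 by 0.37 (SE 0.0689, adjusted p = 0.000273). The count was 6 without 0.04 mM replicate 2, and the median log2 ratio of the list was -0.0004, -0.27 and -0.19 in pairs 1, 2 and 3. Spliceosomal Sm, LSm and U2 proteins had 12 falling and 1 rising of 30 (median -0.21), or 6 falling without 0.04 mM replicate 2. SF3B4, a U2 protein, fell by 0.43 (SE 0.0695, adjusted p = 4.14e-05). SR factors and their kinases had 6 falling and 1 rising of 22, or 3 falling without 0.04 mM replicate 3, and 0 rising without 0.04 mM replicate 2 or full medium replicate 1. SRSF7, an SR splicing factor, had 134, 151 and 139 CPM at 0.04 mM, against 164, 207 and 179 CPM in full medium, with -0.37 (SE 0.0659, adjusted p = 0.000152). RNA polymerase I and III subunits had 3 falling of 24, and 6 without full medium replicate 1. RNA polymerase II subunits had 3 falling of 12, with 0 to 1 without any 1 of 0.04 mM replicates 1, 2 and 3 or full medium replicate 2. Of 29 nuclear pore genes 4 fell (13.79%), against 6.38% of all genes and 14.28% of the highest quintile of CPM. The count was 2 without 0.04 mM replicate 2, 9 without full medium replicate 1 and 0 without replicate 3 in all groups. Their median log2 ratio was 0.16 in pair 1, -0.12 in pair 2 and -0.26 in pair 3.

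Genes for protein and mitochondria fell in some lists, and most members of each list did not pass the test. Mitochondrial ribosomal proteins had 20 falling and 0 rising of 76 (median -0.21). MRPL17 had 78.1, 64.2 and 61.9 CPM at 0.04 mM, against 102, 102 and 80.5 CPM in full medium, with -0.48 (SE 0.0814, adjusted p = 7.19e-05), and MRPS34 fell by 0.41 (SE 0.0748, adjusted p = 0.00019). The count was 13 without 0.04 mM replicate 1, 6 without 0.04 mM replicate 2 and 10 without full medium replicate 2, and 11 with the GC content and length offset. Mitochondrial import genes had 8 falling of 28 (median -0.20), and between 2 (without 0.04 mM replicate 2) and 14 (without full medium replicate 1), with 3 without 0.04 mM replicate 1 and 5 without 0.04 mM replicate 3 or full medium replicate 2. TOMM40, the outer membrane channel, had 250, 219 and 178 CPM at 0.04 mM, against 322, 299 and 260 CPM in full medium, with -0.45 (SE 0.0671, adjusted p = 1.3e-05). Cytosolic ribosomal proteins had 10 falling of 81 (12.35%, against 6.38% of all genes and 14.28% of the highest quintile of CPM). Their median was -0.13, or -0.08 without full medium replicate 2. The count was 1 to 6 without any 1 of 0.04 mM replicates 1, 2 and 3 or full medium replicates 1 and 2. The proteasome regulatory particle had 6 falling of 19, 3 without 0.04 mM replicate 2 or full medium replicate 3 and 10 without full medium replicate 1. PSMC4, one of its ATPases, fell by 0.36 (SE 0.0744, adjusted p = 0.000915). Nuclear-encoded complex I had 4 falling of 37 (10.81%) and ATP synthase 3 of 18 (16.67%). Of all genes 6.38% fell, and of the highest quintile of CPM 14.28%. Of 20 COPI and COPII coat genes 1 rose (5%) and 1 fell (5%), against 7.38% and 6.38% of all genes. Of 30 oligosaccharyltransferase and dolichol genes 0 rose and 2 fell (6.667%). For complex I, 1 fell without 0.04 mM replicates 1 or 2 or full medium replicate 2, and 2 without full medium replicates 1 or 3. For ATP synthase, 1 fell without 0.04 mM replicates 2 or 3 or full medium replicate 3.

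mRNAs encoded by mitochondrial DNA went the other way. Of 13 tested, 6 rose and 0 fell, with a median of 0.37. The pairs differed: the median log2 ratio was 0.06 in pair 1, 0.27 in pair 2 and 0.95 in pair 3. MT-CYB, a complex III subunit, had 1672, 1146 and 1348 CPM at 0.04 mM, against 1218, 763 and 562 CPM in full medium, with 0.75 (SE 0.12, adjusted p = 0.00042). Replicate 1 of full medium stood above replicate 2 at 0.04 mM, so that the groups overlapped. For MT-ND6, the complex I subunit from the light strand, the change was 0.63 (SE 0.119, adjusted p = 0.000315). Without 0.04 mM replicate 3, the library with the raised share of mitochondrial ribosomal RNA, 2 of the 13 rose (median 0.28). Without the libraries over 1% mitochondrial ribosomal RNA, which are replicates 3 at 0.04 mM and 0.12 mM, 2 of the mitochondrially encoded mRNAs rose (median 0.27). Without replicate 3 in all groups 4 rose, with a median of 0.15. Without full medium replicate 1 there were 11 (median 0.63), without full medium replicate 2 there were 2, and without full medium replicate 3 there were 4 rising and 1 falling (median 0.21).

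**Figure D3:**
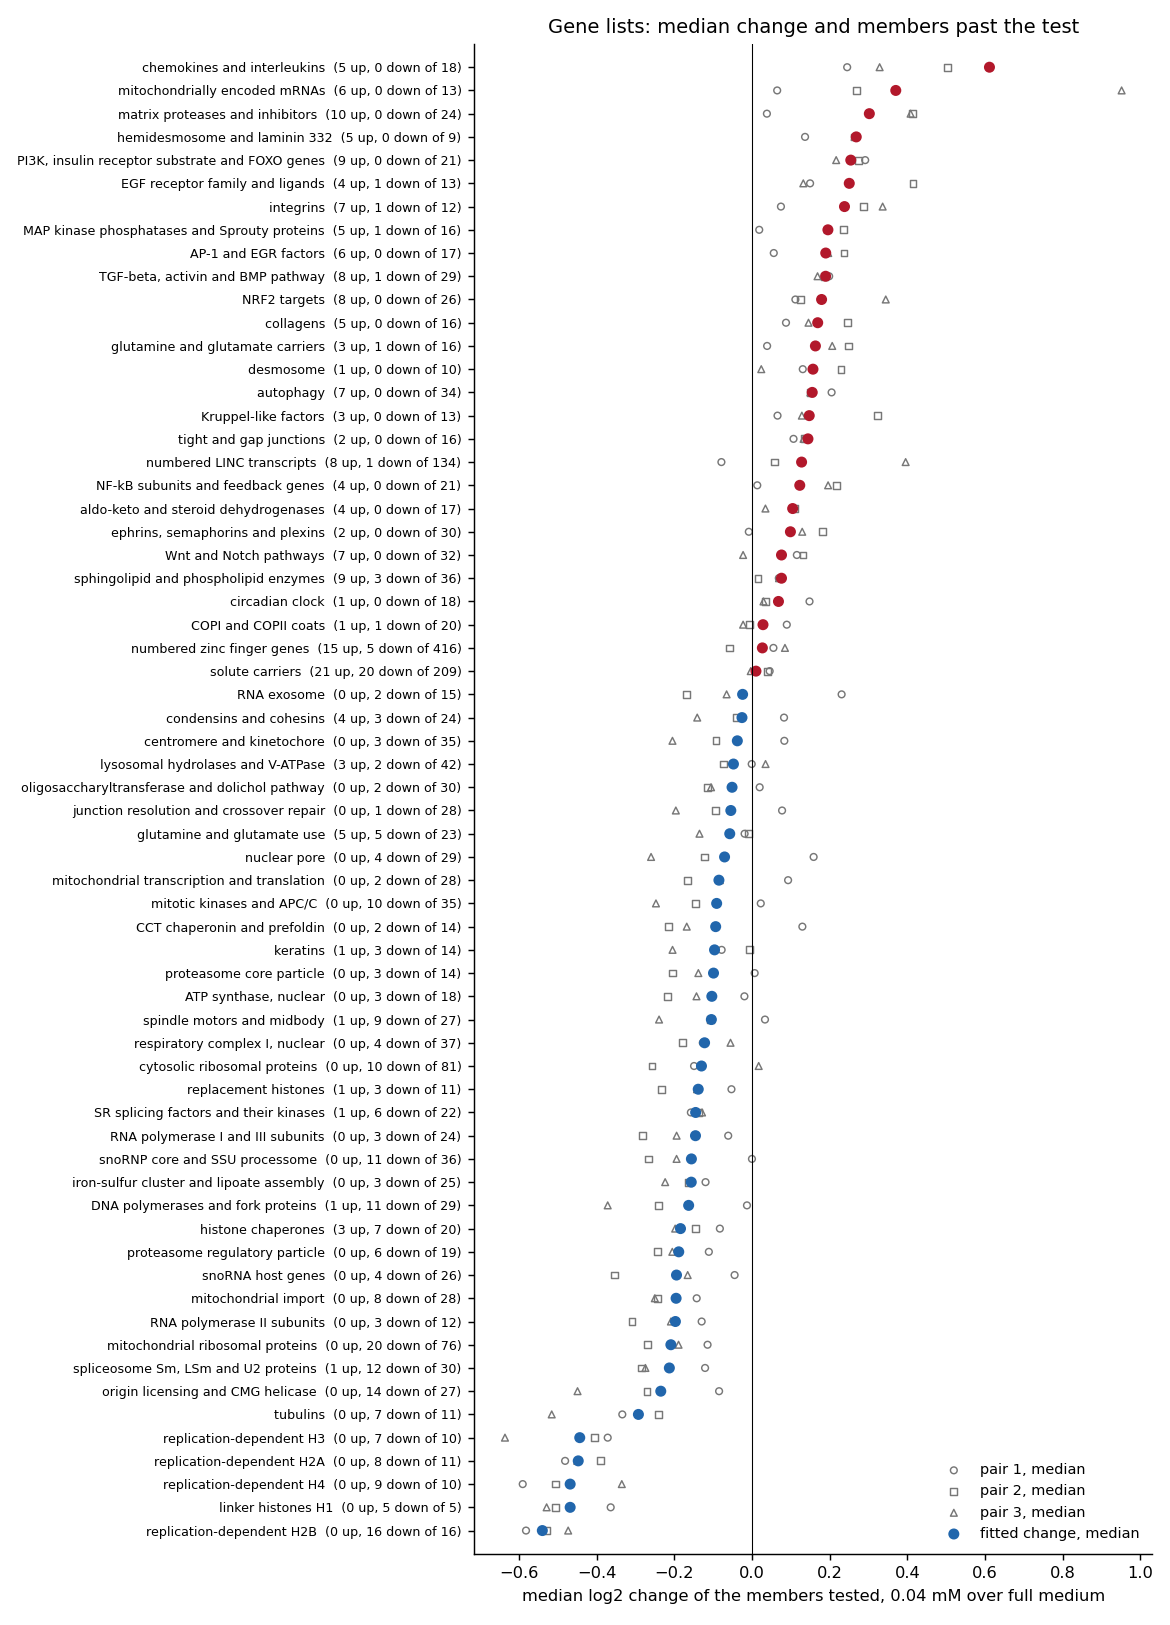
Median log2 change of the members tested in each of 64 gene lists, 0.04 mM over full medium, from the fit (filled) and from the ratios of log2 CPM within each pair (open), which a prior count of 2 pulls toward 0 for low genes. Row labels give members past the test; the 5 histone lists lie lowest, and chemokines and mitochondrially encoded mRNAs highest.

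Some genes of attachment to the basement membrane and of matrix turnover rose, and 0 or 1 of each list fell. Laminin of the basement membrane and the integrin it binds anchor basal epithelial cells through hemidesmosomes. Of 9 genes in this group 5 rose and 0 fell (median 0.27), or 3 rose without 0.04 mM replicate 3 or full medium replicate 2. LAMA3, a laminin alpha chain, had 3861, 2936 and 2670 CPM at 0.04 mM, against 3429, 1813 and 1356 CPM in full medium, with 0.62 (SE 0.109, adjusted p = 0.000605). LAMB3, a beta chain, had 3250, 2719 and 1893 CPM at 0.04 mM, against 2928, 1762 and 1108 CPM in full medium, with 0.51 (SE 0.0821, adjusted p = 3.64e-05). The ranges overlapped in both genes, while each pair was higher at 0.04 mM. Of 12 integrin genes 7 rose and 1 fell (median 0.24), with 4 rising under the GC content and length offset and 2 without replicate 3 in all groups. ITGA2, a collagen receptor subunit (chromosome 5, 52989352 to 53094779), had 216, 244 and 206 CPM at 0.04 mM, against 135, 105 and 107 CPM in full medium. It did not overlap between groups, and the change was 0.94 (SE 0.118, adjusted p = 0.000104). ITGB8, which activates TGF-beta with its partner chain, rose by 0.57 (SE 0.095, adjusted p = 6.56e-05).

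Matrix proteases and their inhibitors had 10 rising and 0 falling of 24 (median 0.30), or 6 rising without 0.04 mM replicate 2 or full medium replicate 2. MMP9, a gelatinase, had 13.2, 14.6 and 9.46 CPM at 0.04 mM, against 7.76, 3.34 and 1.81 CPM in full medium, with 1.49 (SE 0.238, adjusted p = 4.39e-05). ADAM8, a membrane protease, had 16.5, 22.7 and 25.1 CPM at 0.04 mM, against 10.4, 10.3 and 10.7 CPM in full medium, with 1.00 (SE 0.156, adjusted p = 2.73e-05). SERPINE2, a protease inhibitor, rose by 0.44 (SE 0.0704, adjusted p = 3.38e-05). Of 16 collagen genes 5 rose and 0 fell, and 1 or 2 rose without any 1 of 0.04 mM replicates 1 and 2 or full medium replicates 2 and 3. COL1A1, which is also a fibroblast marker, is among these 5. The fibroblast marker DCN, which is not in the collagen list, rose as well, and what this means for the other collagens was not tested. COL6A3, a chain of the microfibril collagen VI, had 61.5, 88.6 and 62.4 CPM at 0.04 mM, against 41, 34.6 and 15.5 CPM in full medium. It did not overlap between groups, and its change was 1.19 (SE 0.22, adjusted p = 0.0064). Keratins, the intermediate filaments of epithelium, had 1 rising (7.14%) and 3 falling (21.43%) of 14, against 7.38% and 6.38% of all genes. None of the 3 falling calls held without any 1 of the 3 libraries at 0.04 mM. Without full medium replicates 1 or 3, 1 fell, and the rising call was lost without 0.04 mM replicates 1 or 2 or full medium replicates 2 or 3.

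Signalling genes rose in several lists. Among EGF receptors and ligands 4 rose and 1 fell of 13, with 2 rising without 0.04 mM replicate 2 or full medium replicate 2 and 7 without full medium replicate 1. AREG, the ligand amphiregulin (chromosome 4, 74445136 to 74455005), had 1029, 1263 and 1112 CPM at 0.04 mM, against 714, 868 and 652 CPM in full medium, with 0.61 (SE 0.0731, adjusted p = 3.6e-07) and no overlap. HBEGF, another ligand, rose by 0.80 (SE 0.187, adjusted p = 0.00278), and NRG1, a ligand of ERBB3, fell by 0.63 (SE 0.133, adjusted p = 0.00106). MAP kinase phosphatases and Sprouty proteins, which dampen MAP kinase signalling, had 5 rising and 1 falling of 16, with 0 falling without 0.04 mM replicates 2 or 3 or full medium replicate 1. DUSP4 had 273, 255 and 242 CPM at 0.04 mM, against 237, 193 and 155 CPM in full medium, with 0.41 (SE 0.0674, adjusted p = 6.2e-05), and DUSP1 rose by 0.44 (SE 0.0741, adjusted p = 6.91e-05). AP-1 and EGR factors had 6 rising and 0 falling of 17, or 3 rising without 0.04 mM replicate 2 or full medium replicate 2. MAFF, a small MAF factor, rose by 0.52 (SE 0.114, adjusted p = 0.0015), and JUNB by 0.37 (SE 0.0806, adjusted p = 0.00148).

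Chemokines and interleukins had a median of 0.61, or 0.38 without 0.04 mM replicate 2, with 5 rising and 0 falling of the 18 tested out of 32, and 8 rising without full medium replicate 1. They were low in both groups. CXCL8, a neutrophil attractant, had 6.34, 15.7 and 13 CPM at 0.04 mM, against 2.49, 4.2 and 4.39 CPM in full medium, with 1.67 (SE 0.227, adjusted p = 3.17e-06). CXCL1 had 8.48, 15.4 and 9.46 CPM at 0.04 mM, against 6.37, 4.96 and 4 CPM in full medium, with 1.07 (SE 0.222, adjusted p = 0.000861). Neither overlapped between groups. Among NF-kB subunits and feedback genes 4 rose (19.05%, against 7.38% of all genes) and 0 fell of 21. BIRC3, an inhibitor of cell death, had 31.2, 52.9 and 55.4 CPM at 0.04 mM, against 17.2, 34.5 and 37 CPM in full medium, with 0.68 (SE 0.102, adjusted p = 1.56e-05), and TNFAIP3, which ends NF-kB signalling, rose by 0.68 (SE 0.138, adjusted p = 0.000636). The 8 immune markers summed to 8.38 to 14 CPM at 0.04 mM and 5.3 to 11.7 CPM in full medium, with 2 of them tested, and CD3E at 0. Over the 6 libraries PTPRC had 1 count, LYZ 3, CD68 4, CD14 91 and CSF1R 353. Their part in the result was not tested.

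The TGF-beta, activin and BMP pathway had 8 rising and 1 falling of 29, or 5 rising without 0.04 mM replicate 2 and 4 without full medium replicate 2. The falling call was lost without 0.04 mM replicate 2 or full medium replicate 3. SKIL, a repressor of SMADs that the pathway induces, had 51.4, 63.3 and 48.1 CPM at 0.04 mM, against 32.4, 35 and 35.5 CPM in full medium, with 0.68 (SE 0.101, adjusted p = 1.3e-05). SMURF2, a ubiquitin ligase of this pathway, rose by 0.32 (SE 0.0678, adjusted p = 0.00109). Wnt and Notch genes had 7 rising and 0 falling of 32, and 3 without any 1 of 0.04 mM replicates 1 and 2 or full medium replicates 2 and 3. WNT5A, a ligand, rose by 0.89 (SE 0.179, adjusted p = 0.000618), and JAG1, a Notch ligand, by 0.44 (SE 0.0748, adjusted p = 9.31e-05). The list of PI3K, insulin receptor substrate and FOXO genes had 9 rising and 0 falling of 21 (median 0.25, or 0.16 without full medium replicate 2), or 5 rising without 0.04 mM replicate 1. PIK3CD, a catalytic PI3K subunit (chromosome 1, 9627258 to 9729114), had 31.2, 34.3 and 30.8 CPM at 0.04 mM, against 20.3, 14.6 and 13.7 CPM in full medium, with 0.97 (SE 0.128, adjusted p = 1.83e-06). INSR, the insulin receptor, had 50.6, 53.5 and 46.5 CPM at 0.04 mM, against 39.2, 30.6 and 33.1 CPM in full medium, with 0.55 (SE 0.0994, adjusted p = 0.000157), and IGF1R rose by 0.37 (SE 0.068, adjusted p = 0.00018). Neither PIK3CD nor INSR overlapped between groups.

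In metabolism and turnover, NRF2 targets, the genes of the oxidant response, had 8 rising and 0 falling of 26. The count was 2 without 0.04 mM replicate 3 and 5 without full medium replicate 2 or 3. NQO1, a quinone reductase, had 387, 497 and 501 CPM at 0.04 mM, against 322, 409 and 296 CPM in full medium, with 0.43 (SE 0.0736, adjusted p = 9.31e-05). Autophagy genes had 7 rising and 0 falling of 34, with 3 rising without 0.04 mM replicate 1 and 4 when replicate 2 was left out at 0.04 mM or in full medium. ULK2, a kinase that starts autophagy, had 24.9, 36.2 and 33.5 CPM at 0.04 mM, against 18.4, 20.3 and 18.1 CPM in full medium, with 0.71 (SE 0.12, adjusted p = 7.8e-05), and RB1CC1, its partner FIP200, rose by 0.53 (SE 0.0926, adjusted p = 0.000101). Sphingolipid and phospholipid enzymes had 9 rising and 3 falling of 36, or 5 rising without 0.04 mM replicate 2. SPTLC3, a subunit of the first enzyme of sphingolipid synthesis, had 60.9, 67.8 and 82.7 CPM at 0.04 mM, against 47.7, 49.9 and 47.7 CPM in full medium, with 0.51 (SE 0.0951, adjusted p = 0.000225). SGMS2, a sphingomyelin synthase, rose by 0.41 (SE 0.089, adjusted p = 0.00126). Solute carriers as a class had 21 rising (10.05%) and 20 falling (9.57%) of 209, against 7.38% and 6.38% of all genes, and 11 to 13 falling without 0.04 mM replicate 2 or full medium replicates 2 or 3. BMAL1 was the 1 of 18 clock genes that rose (5.56%, against 7.38% of all genes), by 0.44 (SE 0.0923, adjusted p = 0.00109), and 2 rose without full medium replicate 1.

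The shift also followed the annotated build of the transcripts. Length and GC content are those of the longest GENCODE 29 transcript of each gene, which need not be the one expressed. Genes that rose had a median length of 5314 bases and a GC content of 43.55%, and genes that fell 2708 bases and 54.6%, against 3492 bases and 48% of all genes tested. In the longest quintile of genes 16.2% rose and 2.15% fell, and in the shortest quintile 2.36% rose and 9.12% fell. In the quintile lowest in GC 12.7% rose and 1.22% fell, and in the highest quintile 4.4% rose and 10.7% fell. Of 4063 genes both longer and lower in GC than the median 562 rose and 96 fell, and of 4063 both shorter and higher in GC 116 rose and 488 fell. More abundant genes passed the test more often, 27.3% in the highest quintile of CPM and 2.06% in the lowest. Protein-coding nuclear genes had 973 rising and 851 falling of 11785, and long noncoding genes 35 and 18 of 1293.

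**Figure D4:**
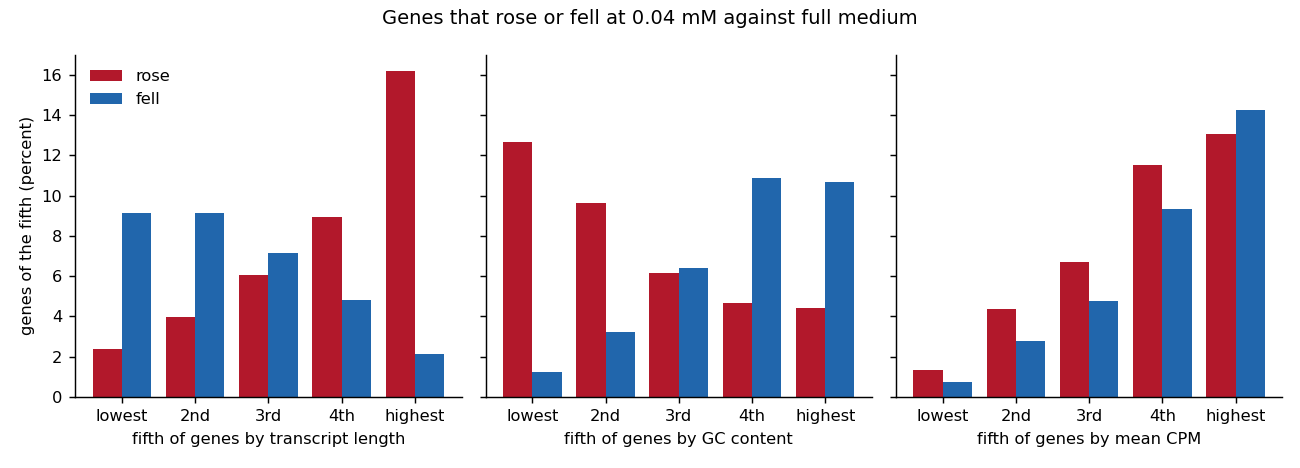
Percent of genes that rose (red) or fell (blue) at 0.04 mM against full medium, in quintiles by length and GC content of the longest annotated transcript and by mean CPM. The longest quintile has 16.2% rising and 2.15% falling, and the share called grows with abundance.

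Per pair and over 7483 genes with at least 20 CPM, the log2 ratio of 0.04 mM to full medium had a Spearman correlation with length of 0.299, 0.394 and 0.197 in pairs 1, 2 and 3. With GC content it was -0.44, -0.216 and -0.18. Replicates of the same group also differed along GC content, with -0.63 for replicate 2 over 1 at 0.04 mM and -0.615 for replicate 2 over 1 in full medium. Replicate 3 over 1 gave -0.472 at 0.04 mM and -0.567 in full medium, while replicate 3 over 2 gave 0.0758 and 0.0657, so the difference lay with replicate 1. Correlation with length between replicates of a group ran from -0.0261 to 0.293. These correlations are across genes of shared libraries, and length and GC content are themselves correlated (-0.305). With an offset per library for GC content and length, 718 genes rose and 884 fell, and 1272 of these were also called without the offset. The rising share of the calls was then 44.8%, against 53.7% without the offset. Histone lists stayed lowest, with 15 of 16 H2B genes falling (median -0.45). The hemidesmosome group had 4 rising of 9 with a median of 0.10, against 5 and 0.27 without the offset. Rising genes numbered 3 of 13 mitochondrially encoded mRNAs, 2 of 13 EGF receptor and ligand genes, 5 of 29 TGF-beta pathway genes, 4 of 34 autophagy genes, 3 of 23 glutamine use genes and 1 of 20 histone chaperones. Falling genes numbered 4 of 28 for crossover repair, 6 of 24 for RNA polymerases I and III, 2 of 37 for complex I and 1 of 14 for keratins, where 2 rose.

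Against the milder limitation, few genes passed the test at 0.04 mM. With 0.04 mM set against the mean of 0.12 mM, 0.20 mM and 0.28 mM, 1 gene passed the test (0.00723%), and 858 had an unadjusted p under 0.05. This was MT-ND6, higher by 0.60 at 0.04 mM (SE 0.097, adjusted p = 0.00476). It had 77.9, 28.7 and 35.9 CPM at 0.04 mM, against 50.2, 23 and 18.5 CPM in full medium. Its mean was 47.5 CPM at 0.04 mM, 30.6 at 0.12 mM, 25.5 at 0.20 mM, 36.7 at 0.28 mM and 30.5 in full medium, and replicate 1 stood highest in each group. Without 0.04 mM replicate 1 there were 5 genes called and without replicate 3 there were 0, MT-ND6 not among them, and without full medium replicate 1 there were 4, MT-ND6 included. DESeq2 called 11 genes, MT-ND6 not among them, and the fit without the replicate block 0 (237 at an unadjusted p under 0.05). Over the 7493 genes with at least 20 CPM, log2 changes had an SD of 0.102 against the milder limitation and 0.228 against full medium, with median standard errors of 0.0739 and 0.0891.

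The genes named first in the comparison with full medium held intermediate or similar levels in the milder groups. Mean CPM of GFPT2 at 0.04, 0.12, 0.20, 0.28 and 2.5 mM was 40.3, 38, 31.3, 30.9 and 14.6. KYNU had means of 123, 112, 113, 97.1 and 68.5 CPM in that order, and SLC38A2 501, 477, 536, 410 and 318 CPM. GLUL had means of 261, 275, 275, 290 and 390 CPM, and H2BC9 91.7, 104, 97.6, 107 and 144 CPM. Against the mean of the 3 milder groups the log2 difference at 0.04 mM was 0.27 for GFPT2, 0.19 for KYNU, 0.09 for SLC38A2, -0.10 for GLUL and -0.17 for H2BC9, and none passed the test (adjusted p = 0.472 to 0.839). A p that misses the threshold does not show that the levels are equal. Among the genes with the next smallest adjusted p, PIK3CD had 0.43, LAMB3 0.28, SERPINE2 0.24, NDRG1 0.25 and COL7A1 0.22 (each adjusted p = 0.29). Of the lower ones, MIPOL1 had -0.52 (adjusted p = 0.29), CKS2 -0.29 and HNRNPC -0.21 (each 0.336) and PHF19 -0.23 (0.381). TMA7 had -0.33 (0.312), but 53.2% of its exons overlap another gene and it is uncertain.

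**Figure D5:**
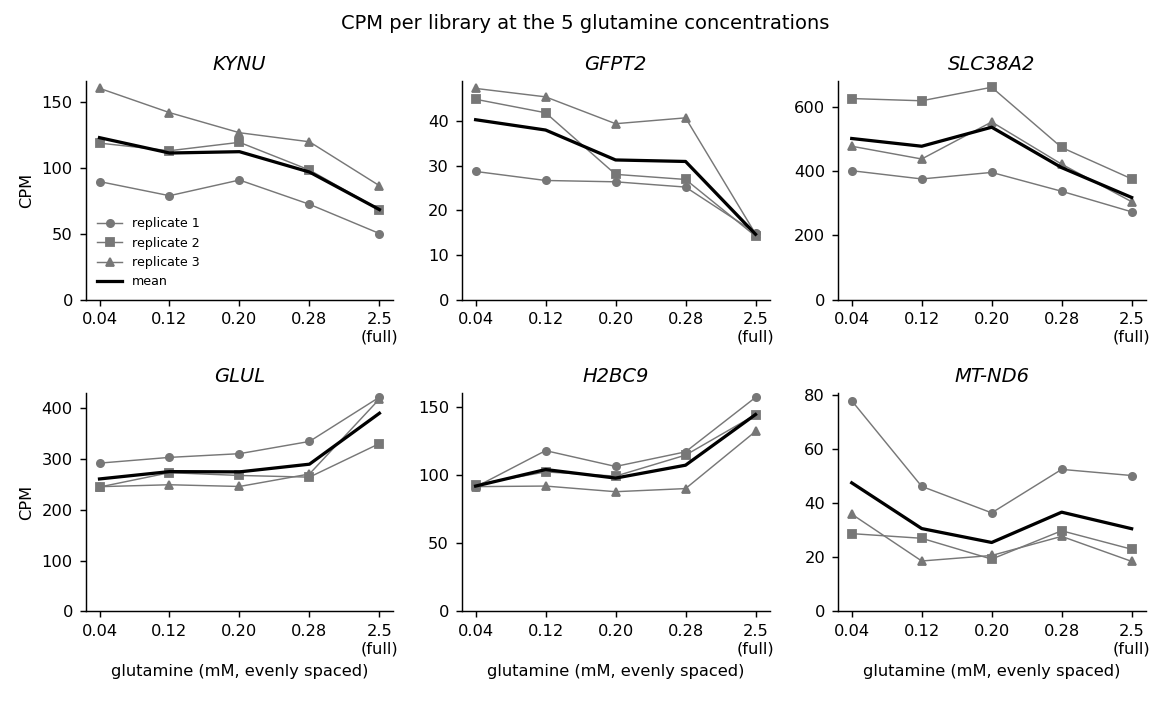
CPM of 6 genes in every library at 0.04, 0.12, 0.20, 0.28 and 2.5 mM glutamine (full medium), evenly spaced. Grey lines join libraries with the same replicate number and black lines the means; in GLUL and H2BC9 each full medium library lies above every library at 0.04 mM, and in MT-ND6 replicate 1 is highest throughout.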

How the data were processed

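Total RNA, depleted of ribosomal RNA and with ERCC spike-ins added, was sequenced from 3 replicates in each of 5 glutamine conditions. The authors deposited raw counts per gene; aligner, counter and strand setting: not given in the sources used here. The deposited table's 92 ERCC rows served only as spike-ins. Genes were kept with edgeR's filterByExpr (minimum count 10). All 15 libraries were fitted with edgeR 4.0.16 (TMM, robust quasi-likelihood), with group and replicate number as terms, and p-values were Benjamini-Hochberg adjusted over 13828 genes. Standard errors came from the log2 change and its F statistic. Samples with the same number deviated together (30 correlations of 0.184 to 0.489, against -0.406 to 0.0549 for 60 with different numbers), and the block rests on this and on the labels' numbers. P-values measure only the spread between these samples. A run on simulated counts, made without a GC trend, checked the code only and says nothing on the calls given here. Genes named were the 12 rising and 12 falling with the smallest adjusted p, the 8 each with the largest change, up to 4 per list and 6 each against the milder limitation. Members and lists were chosen with earlier results of these data known. Coordinates and promoters are RefSeq GRCh38.p14. Depth limits what could be called among low genes. A few genes that the rule names are not reported here.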

Additional observations from a re-analysis of the deposited data

How the results depend on the processing

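Without the replicate block, 10 genes rose and 0 fell at 0.04 mM against full medium. Scaling to ERCC counts left 293 rising and 220 falling, fitting the compared groups alone 641 and 594, and leaving out replicate 3 in all groups 656 and 422. With single libraries left out, 594 to 1083 rose and 422 to 1019 fell. DESeq2 gave 993 and 749. The rising share of calls was 53.7%, but 44.8% with the GC and length offset and 42.9% with an offset for length alone (764 rising, 1016 falling), which like GC alone (824 and 817) was added after seeing the data. Against the milder limitation, where 1 rose and 0 fell, 0 rose without the replicate block, after thinning to the shallowest library, without mitochondrially encoded genes and without libraries over 1% mitochondrial rRNA. There DESeq2 gave 9 rising and 2 falling, ERCC scaling 2 and 0, no filter 6 and 4, the compared groups alone 16 and 0, and single libraries left out 0 to 5 and 0. Some list medians changed sign: condensins and cohesins to 0.11 and keratins to 0.012 without replicate 3 in all groups, and the circadian clock, -0.0054 without full medium replicate 1 and up to 0.13 with other single libraries left out. With no filter, solute carriers changed to -0.053, numbered LINC transcripts to -0.13 and fibroblast markers to -0.62. The cause was not tested.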
